A study of Mus musculus with 6 samples.

Results

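The transcripts of 10 cytosolic aminoacyl-tRNA synthetases, Aars, Cars, Eprs, Gars, Iars, Mars, Nars, Sars, Tars and Wars, were followed across the 6 libraries of the series. They were found by their symbols, in the older form without a final 1, among the 20950 rows of the FPKM table, and all 10 were present once. All 10 also averaged 1 FPKM or more over the libraries, as 10726 genes did, and the lowest value of any member in any library was 20.8 FPKM. The cells were C2C12, an established line of mouse myoblasts, which form multinucleate myotubes once serum is lowered. They were grown in DMEM with 10% FBS (fetal bovine serum, 1 library) or differentiated in 2% HS (horse serum, 1 library), 2% HS + exosome (1 library), 0.2% FBS (1 library) or 0.2% FBS + exosome (2 libraries, replicates 1 and 2). The exosomes were vesicles isolated from FBS, so bovine material was added to mouse cells, and no genetic change was made in any group. According to the methods, exosomes were added in the number held by 10% FBS, the serum of the growing cells. The age of the cultures at RNA collection is not given in the sources used here. No source says whether both replicates came from separate cultures. The p-values measure only the spread between these samples, pooled over genes, which may be technical.

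Aminoacyl-tRNA synthetases attach each amino acid to its tRNA, the step that supplies the ribosome with charged tRNA. They fall into class I and class II by the fold of their catalytic domain, and several cytosolic members are held in a multi-synthetase complex with the scaffold proteins Aimp1, Aimp2 and Eef1e1. When amino acids run short, uncharged tRNA activates the kinase Eif2ak4 (GCN2), translation of the transcription factor Atf4 increases, and Atf4 is known to act on many synthetase genes together with genes of amino acid synthesis and uptake. Myotube formation is a phase of heavy protein synthesis in which sarcomeric proteins are made.

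FPKM is corrected for transcript length and sequencing depth. It is not corrected for differences in RNA composition between libraries, so changes were also computed with libraries scaled to the 75th percentile and to Rpl13a. The depth, estimated from the spacing of low FPKM values, was 33700000 to 39200000 reads per library. At that depth the members rested on 1152 to 25413 estimated reads each, and counting error alone amounted to at most 0.0425 on the log2 scale. The muscle genes Myod1, Myf5, Myog, Des, Ckm and Acta1 were all detected in every library. Their summed level was 3627 FPKM in 10% FBS, 7074 in 2% HS, 6372 in 2% HS + exosome, 7878 in 0.2% FBS, and 3734 and 2956 in 0.2% FBS + exosome. Of 9 markers of other cell types in the table, Hbb-bs was listed at 0 throughout and 1 to 4 were at 0 in each library. Their sum ranged from 4.56 to 22.8 FPKM, highest in 0.2% FBS + exosome replicate 2, where the platelet chemokine gene Ppbp made up 17.0. The summed muscle level was lower in both exosome libraries of 0.2% FBS, as the members were, and the sarcomeric actin gene Acta1 made up most of it (5322 FPKM in 0.2% FBS). The genes of the list did not all move with the sum: Myf5 had 5.39 FPKM in 0.2% FBS and 10.1 and 12.9 with exosomes, and Myog had 564 FPKM in 2% HS and 720 with exosomes. Their part in the results was not tested. In bulk samples, fewer cells of a type and less RNA per cell cannot be told apart.

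All 10 synthetases had their highest level in 2% HS + exosome, against 11.3% of the 10726 genes, and all 10 had their lowest level in a library of 0.2% FBS + exosome, against 27.0% of genes. Their levels summed to 608 FPKM in 10% FBS, 878 in 2% HS and 841 in 0.2% FBS. With exosomes the sum was 1221 FPKM in 2% HS and 552 and 534 FPKM in 0.2% FBS. Exosomes thus went with higher levels in horse serum and lower levels in 0.2% FBS, and in 0.2% FBS they came with levels near those of the growing cells.

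**Figure D1:**
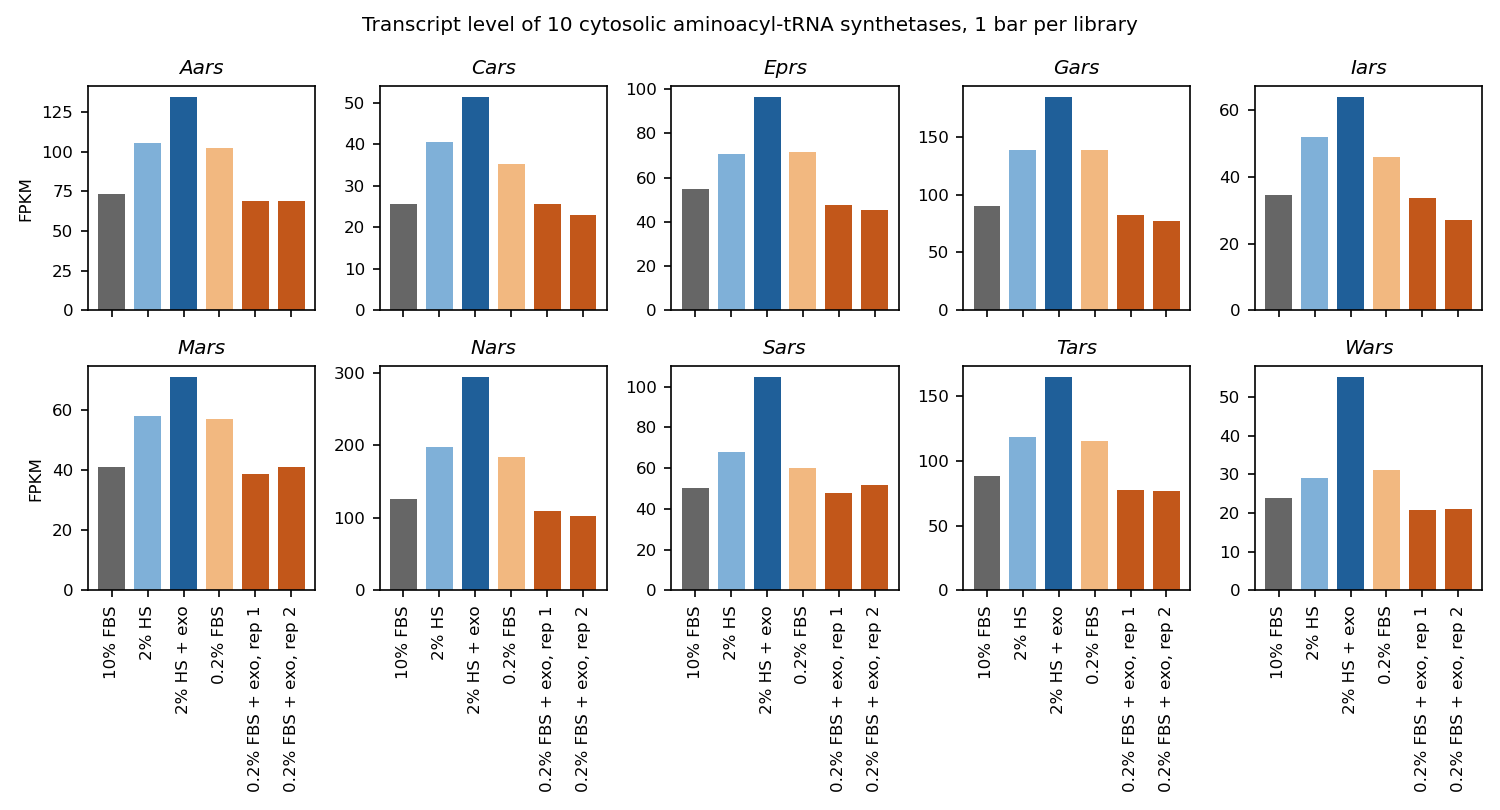
Level of each synthetase transcript (FPKM, linear axis from 0, scaled per gene) in the 6 libraries, 1 bar per library and no error bars since only 0.2% FBS + exosome had 2 libraries. In each of the 10 plots the bar of 2% HS + exosome is the highest and the bars of 0.2% FBS + exosome lie below that of 0.2% FBS.

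Of the class II enzymes, Gars and Nars had the lowest values with exosomes relative to their control in 0.2% FBS. Gars, the glycyl-tRNA synthetase (chr6:55038007-55079500 of mm10, forward strand), stood at 90.4 FPKM in 10% FBS, 139 in 2% HS, 185 in 2% HS + exosome, 138 in 0.2% FBS, and 82.3 and 76.8 in 0.2% FBS + exosome. Both exosome libraries in 0.2% FBS were lower than every other library, at 59.5% and 55.5% of the control. The change was −0.79 ± 0.07 (SD, n = 2 exosome libraries) on the log2(FPKM + 1) scale, which is used for all changes here. Both were set against a single control library, so the SD holds no variation of the control. Nars, the asparaginyl-tRNA synthetase (chr18:64499647-64516652, reverse strand), was the most abundant member in every library, with 126 FPKM in 10% FBS, 198 in 2% HS, 294 in 2% HS + exosome, 184 in 0.2% FBS, and 109 and 102 in 0.2% FBS + exosome. It spanned a 2.88-fold range between its highest and lowest library, the widest of the members.

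Aars, Tars and Sars, the other class II members, charge alanine, threonine and serine. Aars (chr8:111033144-111057664, forward strand) had 73.2 FPKM in 10% FBS, 105 in 2% HS, 135 in 2% HS + exosome, 103 in 0.2% FBS, and 68.8 and 69.1 in 0.2% FBS + exosome. Its exosome replicates in 0.2% FBS were nearly equal, at 67.0% and 67.4% of the control. Of the 75-base stretches of its annotated transcript, 22.1% also belong to Exosc6, a gene on the same strand whose level was 6.39 to 8.94 FPKM, so reads could be split between them. Tars (chr15:11382301-11399665, reverse strand) had 88.3, 118, 165 and 115 FPKM in 10% FBS, 2% HS, 2% HS + exosome and 0.2% FBS, and 77.7 and 76.8 in 0.2% FBS + exosome. As for Aars, the growing cells lay between the low-serum controls and the exosome libraries of 0.2% FBS. Sars (chr3:108424865-108445209, reverse strand) had 50.4, 68.0, 105 and 60.2 FPKM in the same 4 libraries, and 47.6 and 51.5 in 0.2% FBS + exosome. Sars was the one member whose exosome libraries in 0.2% FBS lay on both sides of the growing library, and it kept the largest share of its control, 79.1% and 85.5%.

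The class I members Cars, Iars, Mars and Wars charge cysteine, isoleucine, methionine and tryptophan. Cars (chr7:143557230-143600090, reverse strand) had 25.5 FPKM in 10% FBS, 40.6 in 2% HS, 51.5 in 2% HS + exosome, 35.2 in 0.2% FBS, and 25.5 and 23.0 in 0.2% FBS + exosome. Its first exosome replicate in 0.2% FBS equalled the growing cells to 3 digits. A processed pseudogene, Gm15580, lies on the opposite strand within Cars and shares 211 of its 6583 exon bases. Iars (chr13:49682100-49734267, forward strand) had 34.5, 52.0, 64.1 and 46.0 FPKM in 10% FBS, 2% HS, 2% HS + exosome and 0.2% FBS, and 33.8 and 27.0 in 0.2% FBS + exosome. These replicates were the least alike of all members, 0.31 apart on the log2 scale, and both were below the other libraries. Of its 75-base stretches, 3.31% are shared with the gene model Gm4849.

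Mars (chr10:127296221-127311786, reverse strand) had 40.9 FPKM in 10% FBS, 57.8 in 2% HS, 70.8 in 2% HS + exosome, 56.8 in 0.2% FBS, and 38.7 and 40.8 in 0.2% FBS + exosome. The control in 0.2% FBS nearly equalled that in 2% HS, and the exosome libraries nearly equalled growing cells. The end of Mars overlaps that of Ddit3, a stress transcription factor gene on the opposite strand, over 68 of 3423 exon bases. Ddit3 had 26.4 FPKM in 0.2% FBS and 55.1 and 34.5 with exosomes, opposite in direction to Mars, and 31.6 and 56.9 FPKM without and with exosomes in 2% HS, in the direction of Mars. The strand setting behind the FPKM values is not given in the sources used here, and the part of the overlap in the values of Mars was not tested. Wars (chr12:108860030-108894174, reverse strand) had 23.8, 29.2, 55.1 and 31.0 FPKM in 10% FBS, 2% HS, 2% HS + exosome and 0.2% FBS, and 20.8 and 21.0 in 0.2% FBS + exosome. Its library of 2% HS + exosome stood well above the other 5, 1.89-fold above its control.

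Eprs, a fused enzyme that charges both glutamate and proline and joins a class I to a class II domain (chr1:185363044-185428360, forward strand), had 54.9 FPKM in 10% FBS, 70.8 in 2% HS, 96.7 in 2% HS + exosome, 71.5 in 0.2% FBS, and 47.8 and 45.5 in 0.2% FBS + exosome. Both low-serum controls were almost equal, with the exosome libraries far apart on either side of them. Among the members, Eprs, Iars and Mars belong to the multi-synthetase complex.

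The first comparison asked how exosomes changed these transcripts in 0.2% FBS. All 10 members were lower in each exosome library than in the control, where 27.5% of all genes tested were, and 0 of 10 were higher in each, where 55.2% were. The changes ran from −0.80 for Nars to −0.28 for Sars with a median of −0.57, against a median of 0.14 over all genes. No member passed the study's threshold of −1, which 2.25% of genes passed, and 9 of 10 were below −0.5, where 7.03% of genes were. With libraries scaled to Rpl13a, Gars and Nars passed −1, and the median of all genes was −0.09. In a limma fit over the 10726 genes with Benjamini-Hochberg adjustment, Gars fell with an SE of 0.20 and adjusted p = 0.0384, and Nars fell with an SE of 0.22 and adjusted p = 0.0483. These 2 of 10 calls compare with 4.33% of all genes called lower, and 0 of 10 were called higher beside 8.20% of genes. Sars had an adjusted p of 0.328 in the same limma fit, and the remaining 7 members lay between 0.0577 and 0.0861. Before adjustment 9 of 10 members were below 0.05, where 964 of 10726 genes were lower and 2415 higher at that level. The fit has 1 residual degree of freedom per gene, from the pair of exosome libraries, and assumes that single libraries vary like that pair. limma draws the variance of each gene toward a trend over all 10726 genes, so most of an SE can come from other genes. Aars, for example, had a replicate SD of 0.0056 and an SE of 0.19. The calls of Gars and Nars ended when genes of low level were kept in the fit, where 0 of 16443 genes were called. They also ended when libraries were scaled to Rpl13a, where 100 of 10728 genes were called and the changes of Gars and Nars were −1.04 and −1.05. With libraries scaled to the same 75th percentile 9 members were called, and 1637 of 10726 genes were called in either direction beside 1343 without scaling.

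In 2% HS the same addition came with higher levels of all 10 members, where 41.3% of genes were higher. The changes ran from 0.29 for Mars to 0.90 for Wars with a median of 0.43, against −0.04 over all genes. Wars (0.90), Sars (0.62) and Nars (0.57) were above 0.5, a level that 2.05% of genes reached, and no member was above 1, where 0.354% of genes were. With libraries scaled to Rpl13a the median was 0.27, against −0.18 over all genes, and only Wars stayed above 0.5. This comparison had 1 library on each side and no test. Both directions together, lower in each exosome library of 0.2% FBS and higher in 2% HS, held for 10 of 10 members and 12.1% of genes.

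**Figure D2:**
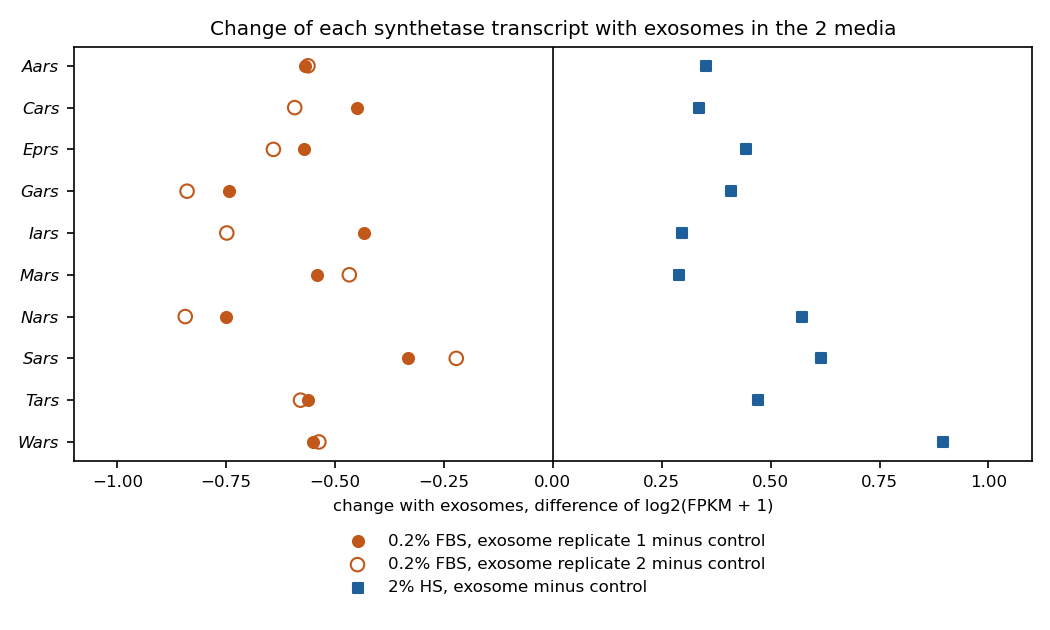
Change of each member with exosomes, as the difference of log2(FPKM + 1) from the control of the same medium, with filled and open circles for replicates 1 and 2 in 0.2% FBS and squares for the 1 library in 2% HS. All 20 circles lie left of 0 and all 10 squares lie right of it, from 0.29 to 0.90.

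The difference between both media was tested in the same fit. Subtracting the exosome change in 2% HS from that in 0.2% FBS left −0.79 to −1.44 over the members, with a median of −0.98 and a median of 0.18 over all genes. Wars passed, with a difference of −1.44, an SE of 0.24 and a limma adjusted p of 0.0358, which makes 1 of 10 members against 0.867% of genes called lower. The other 9 members had limma adjusted p from 0.0831 to 0.158. Before adjustment all 10 members were below 0.05, where 599 of 10726 genes were lower and 1492 higher at that level. The call of Wars ended without the filter on low values, without the mean-variance trend and with scaling to Rpl13a, where its difference was −1.53. Those fits called 0 of 16443, 45 of 10726 and 27 of 10728 genes for the difference, beside 125 of 10726 here. Both HS libraries carry the number 1 in their titles, 0.2% FBS and its exosome replicate 1 carry 2, and exosome replicate 2 carries 3, so that medium and number cannot be told apart. With replicate 1 only, which shares its number with the control, the changes in 0.2% FBS ran from −0.75 to −0.33.

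The members did not keep 1 order in both media. Across the 10 genes, which share their libraries and are not replicates, the changes in 0.2% FBS and in 2% HS had a Spearman rho of −0.08. Wars had the largest value in 2% HS and one of the middle values in 0.2% FBS, whereas Gars had one of the lowest values in 0.2% FBS and a middle one in 2% HS. Class II members ranged from −0.80 to −0.28 in 0.2% FBS and class I members from −0.59 to −0.50. In 2% HS class II members ranged from 0.35 to 0.62 and class I members from 0.29 to 0.90. The classes overlapped in both media. The members of the complex, Eprs, Iars and Mars, had −0.61 to −0.50 and 0.29 to 0.44, within the range of the 7 members outside it in 0.2% FBS and overlapping it in 2% HS.

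The promoters were examined because the members moved together. RefSeq promoters (GRCm38.p6, 250 bases before to 50 after the start) were read for 6 of the 9 members searched, Eprs, Gars, Iars, Mars, Sars and Tars, and Cars, Nars and Wars had no entry in the table used. The motif TGATGCAA, a C/EBP-ATF composite site of the kind found in amino acid response elements, was searched on both strands. It occurred in 2 of these 6 members, Iars and Tars, in 1 of 7 promoters of other cytosolic synthetases (Yars) and in 0.892% of 32850 promoters. With any base in the sixth position, TGATGNAA, which includes every TGATGCAA, it occurred in 3 of 6 members, Gars being added, and in 3.97% of these promoters. The matches are shown within 30 bases, in the direction of the gene, with the match in capitals. TTGCATCA and TTTCATCA are TGATGCAA and TGATGAAA read from the other strand. They lie at −30 in Gars, 8 in Iars, −15 in Tars and 4 in Yars, counted from 1 at the start site to the first base of the match.
Gars chr6:55037960-55037989, forward: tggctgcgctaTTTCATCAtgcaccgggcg
Iars chr13:49682126-49682155, forward: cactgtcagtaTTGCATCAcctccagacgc
Tars chr15:11399655-11399684, reverse: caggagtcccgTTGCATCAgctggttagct
Yars chr4:129189895-129189924, forward: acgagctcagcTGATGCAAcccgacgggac
A match is a description of the letters and not of a bound site. Eprs, Mars and Sars had no match in this window, and their changes in 0.2% FBS were −0.61, −0.50 and −0.28, beside −0.79 to −0.57 for the 3 members with a match, so the values overlapped.

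The next comparisons set low serum without exosomes against growth in 10% FBS. All 10 members were higher in both 0.2% FBS and 2% HS than in 10% FBS, where 31.4% of genes were. In 0.2% FBS the differences ran from 0.25 for Sars to 0.61 for Gars, and 2 of 10, Gars and Nars (0.55), were above 0.5 beside 6.48% of genes. In 2% HS they ran from 0.28 for Wars to 0.65 for Nars, and 5 of 10, Nars, Cars, Gars, Iars and Aars, were above 0.5 beside 6.82% of genes. Each of these differences rests on 1 library a side, with no test, and they share the 10% FBS library. No member differed by 1 or more, but with libraries scaled to Rpl13a 6 of 10 did in 2% HS and 0 of 10 in 0.2% FBS, with medians of 1.07 and 0.76 in place of 0.50 and 0.43. The median of all genes moved with this scaling too, from −0.08 to 0.43 in 2% HS and from −0.09 to 0.21 in 0.2% FBS.

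With exosomes, the levels in 0.2% FBS lay close to those of growing cells. The members other than Sars, 9 of 10, were lower than in 10% FBS in each exosome library, where 31.0% of genes were; with libraries scaled to Rpl13a, 0 of 10 were lower in each. The differences were small, from −0.25 for Nars to −0.03 for Sars, and limma called 0 of 10 members, with 0 of 10 below 0.05 before adjustment and adjusted p from 0.668 to 0.977. Among all 10726 genes limma called 7 in this comparison, and 1232 were below 0.05 before adjustment.

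Averaged over the members, the order of the libraries was 2% HS + exosome, 2% HS, 0.2% FBS, 10% FBS and then replicates 1 and 2 of 0.2% FBS + exosome. With libraries scaled to Rpl13a, 10% FBS came after replicate 1. The step from 2% HS + exosome to 2% HS was 0.47 on average and exceeded the largest replicate gap of any member, 0.31, in 8 of 10 members. The step from 0.2% FBS to 10% FBS was 0.43 and exceeded it in 9 of 10. The neighbours 2% HS and 0.2% FBS, 0.07 apart, did not differ beyond it in any member, nor did 10% FBS and replicate 1 of 0.2% FBS + exosome, 0.12 apart. These steps are of unscaled values. With libraries scaled to Rpl13a, the members averaged 6.89 in 2% HS + exosome and 6.57 in 2% HS on the log2 scale. Replicates 1 and 2 of 0.2% FBS + exosome, at 5.72 and 5.19, then lay further apart than that step. The libraries 0.2% FBS and 10% FBS, at 6.28 and 5.51, lay further apart than these replicates.

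The other 11 cytosolic synthetase genes covered a wider range. In 0.2% FBS, 9 of 11 were below the control in both exosome libraries (27.5% of all genes), with a median of −0.40, or −0.50 and −0.64 with scaling to the 75th percentile and to Rpl13a. Lars, the leucyl-tRNA synthetase, fell by 0.74 (limma adjusted p = 0.0315), from 61.6 FPKM to 37.4 and 35.8, and was the single one of 11 called, beside 4.33% of all genes called lower. Rars, the arginyl-tRNA synthetase, had 79.4 FPKM in the control and 53.4 in both exosome libraries, a change of −0.56. Qars and Vars, for glutamine and valine, had the highest changes, 0.13 and 0.09, and both were negative with libraries scaled to Rpl13a (−0.12 and −0.16). Without replicate 2 the change of Qars was 0.04, and without replicate 1 it was 0.22. In 2% HS, 7 of 11 were higher (41.3% of all genes) and the median was 0.09, with Lars at 0.62, Rars at 0.50, Vars at 0.09 and Qars at −0.28. With scaling to Rpl13a, 4 of 11 were higher and the median was −0.07, against −0.18 over all genes. The members and these genes together make 21 cytosolic synthetase genes, of which 16 were lower in each exosome library of 0.2% FBS and higher in 2% HS, beside 12.1% of all genes.

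**Figure D3:**
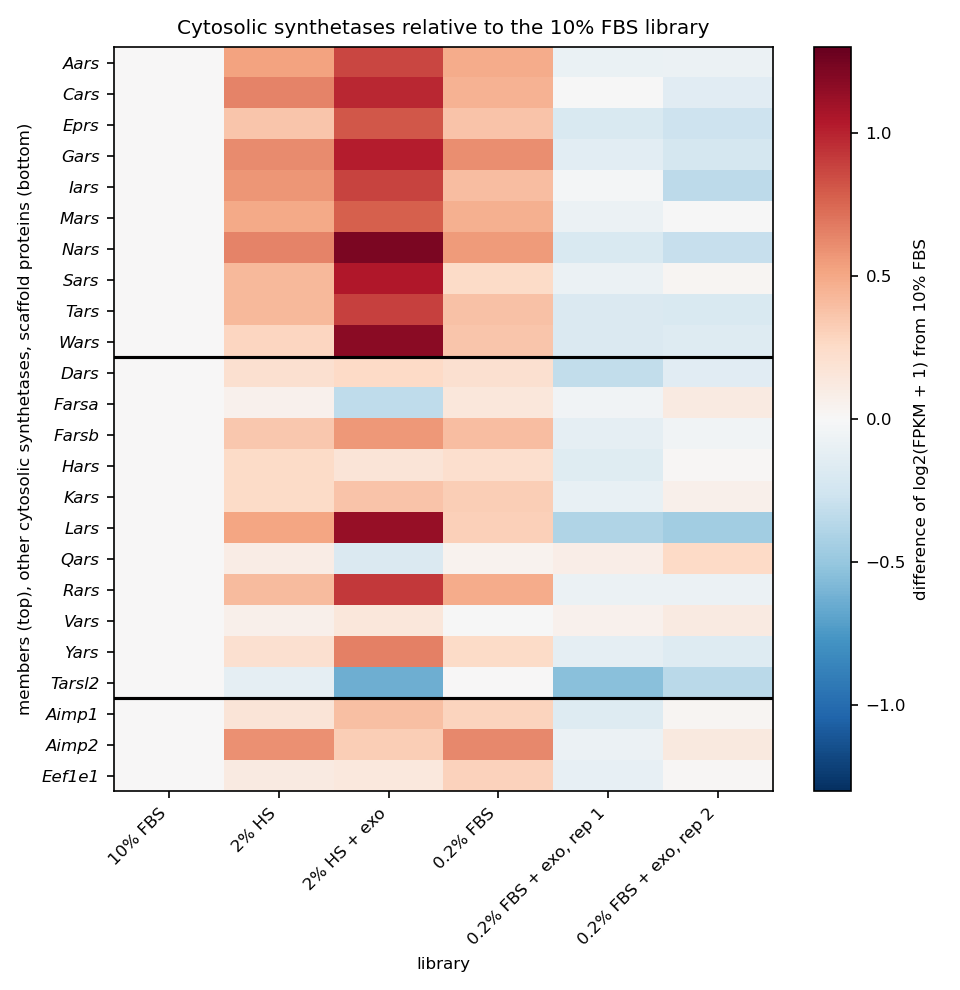
Level of 21 cytosolic synthetases and 3 scaffold proteins in each library as the difference of log2(FPKM + 1) from 10% FBS (red higher, blue lower), with black lines between the members, the other synthetases and the scaffold genes. The 10 members share one pattern, also seen in Lars, Rars, Yars and Farsb. Dars, Kars and the scaffold genes Aimp1 and Eef1e1 have the same signs with exosomes, at 0.05, 0.12, 0.22 and 0.02 in 2% HS. Farsa, Hars, Qars, Tarsl2 and the scaffold gene Aimp2 are lower in 2% HS + exosome than in 2% HS.

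The 3 scaffold genes were lower in each exosome library of 0.2% FBS, as 27.5% of all genes were, with changes of −0.36 for Aimp1, −0.60 for Aimp2 and −0.34 for Eef1e1, or −0.62, −0.85 and −0.59 with libraries scaled to Rpl13a. Beside 4.33% of all genes called lower, limma called none of them (adjusted p 0.0577 to 0.227). Before adjustment 1 of 3 was lower at p below 0.05, beside 964 of 10726 genes. In 2% HS their changes were 0.22, −0.28 and 0.02, or 0.06, −0.43 and −0.13 with libraries scaled to Rpl13a, where Eef1e1 changes sign. Aimp2 was 50.6 FPKM in 2% HS and 41.5 with exosomes, a lower value where all members were higher.

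The mitochondrial synthetases, which serve protein synthesis inside mitochondria, had no common direction in the unscaled values. Of 17 genes, 7 had both exosome libraries of 0.2% FBS below the control and 6 had both above it, beside 27.5% and 55.2% of all genes, with a median of 0.03. With scaling to the 75th percentile these were 9 and 4 with a median of −0.06, and with scaling to Rpl13a 10 and 2 with a median of −0.18. In 2% HS 8 of 17 were higher, beside 41.3% of all genes, and the median was −0.04, or 3 of 17 and −0.17 with scaling to Rpl13a. The median of all genes was −0.04 there, or −0.18 with scaling to Rpl13a. Mars2, the mitochondrial methionyl-tRNA synthetase, fell by 0.68 (limma adjusted p = 0.0465), from 6.01 FPKM to 3.78 and 2.98, and was the single one of 17 called, a share near the 4.33% of all genes called lower. Nars2 had the next lowest change (−0.46) and Lars2 and Hars2 the highest (0.58 and 0.33), though Lars2 had 0.28 in replicate 1 and 0.88 in replicate 2. The elongation factors, which bring charged tRNA to the ribosome and move it on, showed changes from −0.23 for Eef1b2 to 0.27 for Eef1a1 over 5 genes tested. Eef1d had −0.02 and Eef2, the translocation factor, 0.16. These values depended on the replicate, with −0.39 and −0.08 for Eef1b2 in replicates 1 and 2, 0.12 and 0.42 for Eef1a1, −0.13 and 0.10 for Eef1d and 0.04 and 0.29 for Eef2. None was called by limma, before or after adjustment, and 2 of 5 were higher in each exosome library beside 55.2% of all genes, or 0 of 5 with scaling to Rpl13a.

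Known genes of the amino acid response covered a wider range of changes than the synthetases. Of 33 genes tested in a list of 35, limma called 11 lower and 1 higher in 0.2% FBS, beside 4.33% and 8.20% of all genes, and 32 were higher in 2% HS, beside 41.3%. The difference between media was called, lower, in 17 of them, beside 0.867% of genes. Fgf21, a hormone gene of this response, fell by 1.65 (adjusted p = 0.00736), and Asns, the asparagine synthetase, fell by 1.45 (adjusted p = 0.00766). Asns had 126 FPKM in 0.2% FBS and 47.6 and 43.4 with exosomes, and 121 and 265 FPKM without and with exosomes in 2% HS. Ddit4, an inhibitor of mTORC1 signalling, rose by 0.80 in 0.2% FBS (limma adjusted p = 0.0424), and Ddit3 had a change of 0.71, from 1.03 in replicate 1 and 0.38 in replicate 2. Atf4 itself had 358 FPKM in 0.2% FBS and 282 and 277 with exosomes, and 334 and 488 FPKM without and with exosomes in 2% HS, changes of −0.36 and 0.54, or −0.61 and 0.39 with scaling to Rpl13a. Eif2ak4 had 4.07 FPKM in 0.2% FBS and 5.63 and 5.59 with exosomes, a change of 0.38, or 0.17 with scaling to Rpl13a. In 2% HS it had 3.77 FPKM and 3.59 with exosomes, a change of −0.06 between 2 single libraries. In 0.2% FBS neither Atf4 (limma adjusted p = 0.404) nor Eif2ak4 (limma adjusted p = 0.155) was called. All 4 kinases of eIF2 were higher in each exosome library of 0.2% FBS, as 55.2% of all genes were, or 1 of 4 with scaling to Rpl13a, and limma called Eif2ak3 (0.69, adjusted p = 0.0375).

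**Figure D4:**
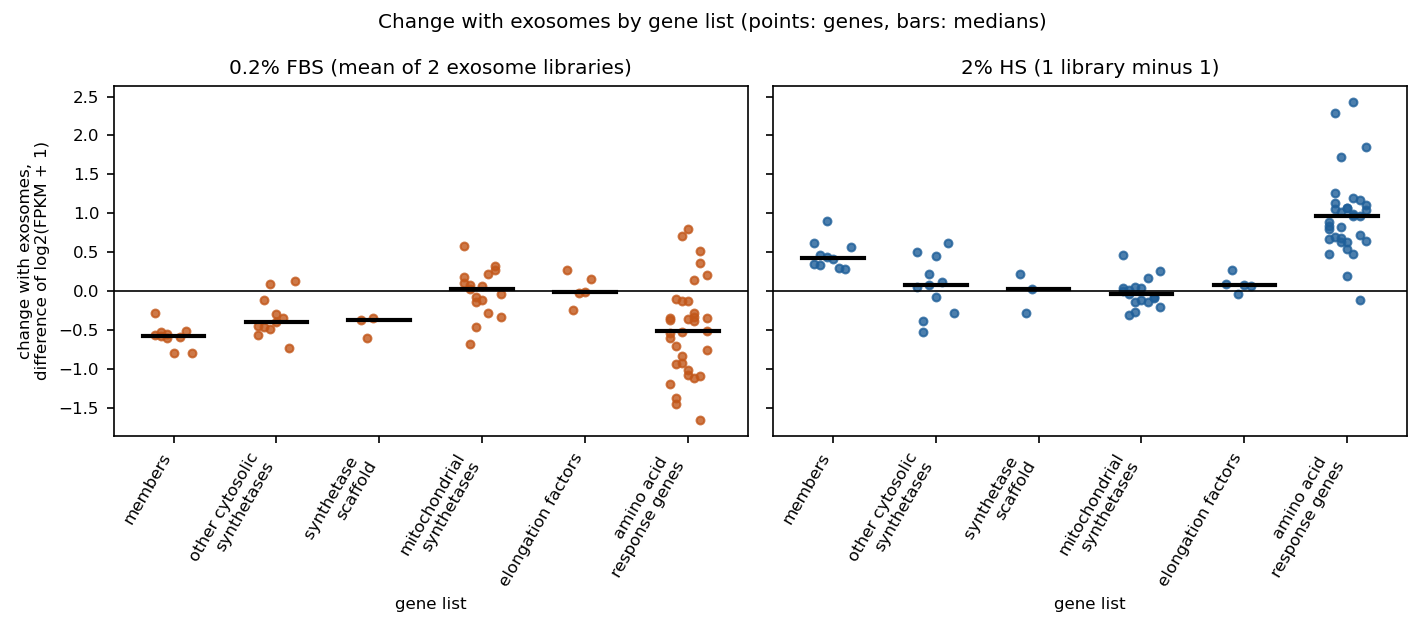
Change with exosomes of every tested gene (points) and the median (bar) in 6 gene lists, as the difference of log2(FPKM + 1), in 0.2% FBS on the left and 2% HS on the right. The members lie at a median of −0.57 and 0.43, the mitochondrial synthetases at 0.03 and −0.04, and the amino acid response genes at −0.52 and 0.96.

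Among 4155 genes averaging 5 FPKM or more and with a range of at least 0.5, the pattern most like the mean of the 10 members over the 6 libraries was that of Mthfd2, a mitochondrial folate enzyme (Pearson r = 0.999). It had 30.2 FPKM in 10% FBS, 65.0 in 2% HS, 136 in 2% HS + exosome, 64.3 in 0.2% FBS, and 24.7 and 23.6 in 0.2% FBS + exosome. Next came Asns, Eif3c, Ghitm, Chac1, Aldh1l2, Phgdh, Rars, Slc7a1 and Slc7a5, with r from 0.997 to 0.993. Eif3c encodes a subunit of an initiation factor, Phgdh the first enzyme of serine synthesis, and Slc7a1 and Slc7a5 amino acid transporters. The members themselves had r from 0.956 (Sars) to 0.999 (Nars) with the mean of which they are part. Of the 4155 genes 115 exceeded 0.95, the median was −0.68, and the likeness over 6 libraries is a description.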

How the data were processed

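The authors trimmed 75-base single-end reads of stranded mRNA libraries (cutadapt 1.9.1), mapped them to mm10 (TopHat2 2.1.0) and deposited FPKM values computed with Cufflinks, 1 column per library. No counts were used here, so depth was estimated from low FPKM values of 2442 genes, assuming 200-base fragments: 73.6% to 76.7% of values lay within 0.1 of a whole read, beside 20% if spread evenly. The labels name a miRNeasy kit and the methods an RNeasy kit.

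Values were compared as log2(FPKM + 1). The study's rule was a log2 change above 1 or below −1. limma 3.58.1 (R 4.3.3) was fitted with 1 mean per condition and a mean-variance trend over the 10726 genes averaging 1 FPKM or more, with Benjamini-Hochberg adjustment at 0.05. It was tested on simulated data with the same noise SD for all genes and libraries. That test cannot show whether single libraries vary like the replicate pair. The condition of each library came from the labels. The members and gene lists were chosen with earlier results of these data known. Named were all members, the 2 lowest and 2 highest changes in 0.2% FBS of each list except the eIF2 kinases, scaffold genes, Atf4, Eif2ak4, and the 10 genes most correlated with the members' mean; the call of Eif2ak3, Exosc6, Ddit3 beside Mars, and the synthetases named outside this rule were chosen after their values were seen. Positions are from GENCODE vM21 on mm10. Alternatives were another pseudocount, scaling, filter, trend, threshold and exosome term, and leaving out each replicate; scaling of the other lists and of the order of libraries, and a block by title number, were added after seeing the data. One sequence result is not reported here.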

Additional observations from a re-analysis of the deposited data

Results flagged for a closer look

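For each member, every exosome library in 0.2% FBS was below its control and the exosome library in 2% HS was above its own. The difference between these changes (0.2% FBS less 2% HS) was −0.92 for Aars, −0.86 for Cars, −1.05 for Eprs, −1.20 for Gars and −0.89 for Iars. It was −0.79 for Mars, −1.37 for Nars, −0.89 for Sars, −1.04 for Tars and −1.44 for Wars. limma, with adjustment over 10726 genes, called the difference for Wars (adjusted p = 0.0358); for the other 9 the adjusted p was 0.0831 to 0.158. Each medium had 1 control library, and medium, title number and control library cannot be told apart.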

How the results depend on the processing

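The signs of the members' median changes held under every alternative that was run. With libraries scaled to the same 75th percentile, the median of the members was −0.68 in 0.2% FBS with exosomes, −1.12 for the difference between media and −0.25 for 0.2% FBS + exosome against 10% FBS, and limma called 9 members in 0.2% FBS and 5 for the difference, against 2 and 1, while calls over all genes went from 1343 to 1637 and from 125 to 350. With Rpl13a the medians were −0.82 in 0.2% FBS, 0.27 in 2% HS, −1.08 for the difference, 0.76 for 0.2% FBS, 1.07 for 2% HS and −0.090 for 0.2% FBS + exosome against 10% FBS, 2 members passed −1 in 0.2% FBS and 6 passed 1 in 2% HS against 10% FBS, and limma called 0 and 0. Under this scaling, limma calls over all genes also fell, to 100 of 10728 in 0.2% FBS and to 27 of 10728 for the difference. Rpl13a itself ranged from 529 to 875 FPKM. In exosome replicates 1 and 2 of 0.2% FBS, the pair that gives the fit its residual degree of freedom, it was 622 and 875 FPKM. Scaling to Rpl13a moved the median of all genes from 0.14 to −0.09 in 0.2% FBS with exosomes. In 2% HS against 10% FBS that median moved from −0.08 to 0.43. Without the filter on low values limma called 0 and 0 members, and 0 of 16443 genes in either comparison. Before adjustment 8 and 9 members were below 0.05, beside 3120 and 2275 of all genes. Without the mean-variance trend limma called 2 and 0 members, beside 1032 and 45 of 10726 genes. A fit with 1 exosome effect for both media called 0 members (0 before adjustment) and 0 of 10726 genes (708 before adjustment). The members' median was −0.16 in place of −0.57, by construction an average of opposite changes. At a threshold of 0.5, 9 members passed in 0.2% FBS with exosomes, 3 in 2% HS with exosomes, and 2 and 5 in 0.2% FBS and 2% HS against 10% FBS, where none passed 1. Leaving out each exosome replicate gave medians of −0.59 and −0.56 in 0.2% FBS, −1.05 and −0.98 for the difference, and −0.19 and −0.11 against 10% FBS, and it left no residual degree of freedom for a test. A pseudocount of 0.1 left the counts of calls at 2 and 1. The cause of these shifts was not tested. With the title number as a replicate block in place of the medium, a fit added after seeing the data had 1 residual degree of freedom. It called 0 members (0 before adjustment) and 0 of 10726 genes (295 before adjustment), and the members' median was −0.07. The labels do not say what a number marks, no number spans both media, and the fit averages opposite changes too. Exosome replicate 2 is alone under its number and adds nothing to the estimate. The residual is the difference between the pairs numbered 1 and 2, so this fit cannot decide on genes with opposite changes. With 1 control library per medium, variation among control cultures could not be measured, and depth does not limit these abundant transcripts.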

Other observations

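Enzymes for the same amino acid did not always have like values; these pairs were chosen after their values were seen. Farsa and Farsb encode both chains of phenylalanyl-tRNA synthetase. Farsb had 39.5 FPKM in 0.2% FBS and 27.3 and 28.7 with exosomes, and 38.1 and 44.5 FPKM without and with exosomes in 2% HS. Farsa had 49.0 FPKM in 0.2% FBS and 42.6 and 47.8 with exosomes (changes of −0.20 and −0.03), and 46.0 and 35.0 in 2% HS, so the chains had opposite signs in horse serum. Tarsl2, a second cytosolic threonyl-tRNA synthetase, had 3.77 FPKM in 0.2% FBS and 2.25 and 2.72 with exosomes, and 3.37 and 2.05 in 2% HS, lower in both media where Tars was higher in 2% HS. limma called none of these 3 genes in 0.2% FBS, where Farsb and Tarsl2 were below 0.05 before adjustment.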
